A study of Mus musculus with 20 samples.

Results

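The expression of cytosolic ribosomal protein genes was measured in whole liver of *Crem* knock-out (KO) and wild-type (WT) mice at the end and at the onset of the light phase. Members were taken by name, as every probe set annotated to exactly 1 gene whose symbol begins with Rpl or Rps and a number, or is Rplp0, Rplp1, Rplp2 or Rpsa, without symbols that carry the pseudogene mark -ps and without the Rps6k kinases. The rule found 31 probe sets for 30 genes among 25689 probe sets with values (30 of 19661 genes that have a probe set of their own), and used no measured value. They comprised 12 probe sets of the large subunit, 3 of which report the acidic stalk, 10 probe sets of the small subunit for 9 genes, and 9 probe sets of paralogs or of genes that only share the name. A further 188 matching probe sets held no value on any array, so that 33 of the 63 matching genes, among them *Rpsa*, *Rps6*, *Rpl5* and *Rpl10*, were not measured and nothing can be said of them here.

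Total liver RNA of 20 mice was hybridized to GeneChip Mouse Gene 1.0 ST arrays, 1 mouse per array and 5 mice per group, as KO at 12 h, WT at 12 h, KO at 0 h and WT at 0 h. KO mice were *Crem*-/- in every tissue, and all mice, 8 weeks of age, had a mixed 129Pas and C57Bl/J background, received no treatment, and ate and drank freely under equal hours of light and dark. Light came on at 0 h and went off at 12 h. The 0 h arrays of both genotypes were spread over batches 1 to 4, whereas batch 5 held every 12 h array. An effect of time therefore cannot be told apart from one of batch. The labels do not say what a batch was. Mice at 0 h and at 12 h were different animals, and values below follow the order of their numbers, which was 18, 55, 109, 110 and 166 for KO at 12 h, 111, 167, 168, 169 and 170 for WT at 12 h, 1, 76, 77, 143 and 144 for KO at 0 h, and 78, 80, 145, 146 and 147 for WT at 0 h.

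Ribosomal proteins fold around the ribosomal RNAs and form, with them, the small subunit that decodes mRNA and the large subunit that joins amino acids. Each protein is needed in about the same number of copies, and most of their mRNAs begin with a 5′ terminal oligopyrimidine (TOP) tract, a C at the cap followed by a run of C and T, through which mTOR signalling and LARP1 set how strongly they are translated. In mouse liver the translation of these mRNAs is known to vary over the day with feeding. *Crem* encodes cAMP-response element modulator, a transcription factor of the CREB family that binds cAMP-responsive elements (CRE), of which TGACGTCA is the full form.

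To show the sequence feature for which these mRNAs are known, the 30 bases around the annotated transcription start were read from RefSeq promoters of GRCm38.p6, 10 bases before the start and 20 from it, in the direction of transcription. Capitals mark the first run of a C and at least 4 pyrimidines that begins at the start or within 5 bases of it. The first 5 genes below are examples of the 11 that hold such a run. The last 3, which had the 3 largest changes between the times, do not. Picked in this way, the sequences are no comparison of changes with and without a run, which is given further below.
Rps9, chr7:3704031-3704060, plus strand: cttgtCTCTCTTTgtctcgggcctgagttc
Rpl34, chr3:130730379-130730408, minus strand: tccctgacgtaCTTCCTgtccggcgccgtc
Rps21, chr2:180257369-180257398, plus strand: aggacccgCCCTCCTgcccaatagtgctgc
Rps15a, chr7:118116128-118116157, minus strand: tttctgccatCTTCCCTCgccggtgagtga
Rpl14, chr9:120571507-120571536, plus strand: ggccctCTCTCTTCTCgctgagcgccgcca
Rpl26, chr11:68901556-68901585, plus strand: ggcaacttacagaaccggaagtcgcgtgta
Rps19, chr7:24884582-24884611, plus strand: aatctcgcgagactcgacgcccgacttgtg
Rps3a1, chr3:86142649-86142678, minus strand: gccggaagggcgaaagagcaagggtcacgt

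Of the 30 genes, 25 had a promoter entry (*Rplp1*, *Rpl8*, *Rpl30*, *Rps14* and *Rps4l* had none). The base at an annotated start was a C followed by at least 4 pyrimidines in 5 of the 25 (20%), against 3.01% of 27025 genes. Pyrimidines could also precede that base, as in *Rpl14* and *Rps21*, whose printed runs begin before the start. Within 5 bases of a start such a C lay in 11 (44%), against 21.2% of genes. Annotated starts can lie some bases away from the true cap site, so that absence of a run in this window says only that these letters are not there. For *Rps19* 3 starts are annotated, of which the first is printed and none holds a run. For *Rps21* and *Rpl34* 2 starts each are annotated and 1 is printed. The other start of *Rpl34* holds a run as well, and that of *Rps21* does not. A gene was counted where any of its starts held a run.

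Because the mice lack *Crem*, the promoters from 250 bases before to 50 bases after the start were also searched for TGACGTCA, which reads the same on both strands. *Rpl26* and *Rps9* held it, 134 and 57 bases before the start, which made 2 of 25 (8%), against 2.03% of all genes. It stands in capitals here.
Rpl26, chr11:68901421-68901450, plus strand: cctccgagggaTGACGTCAggacccctcgc
Rps9, chr7:3703973-3704002, plus strand: gcggtgcgtgaTGACGTCActacaaggcga
The shorter TGACG, or CGTCA on the other strand, both of which are contained in the full motif, was found in 9 of 25 promoters (36%), against 23% of all genes. A match is a description of the sequence and not a site of binding.

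Across the series, values are log2 relative brightness after RMA, and levels of different probe sets were therefore not compared with each other. Pairwise correlations between arrays lay between 0.969 and 0.994. *Crem* had 7.39 to 7.83 in KO livers at 12 h, against 7.90 to 8.02 in WT livers. At 0 h it had 7.43 to 8.17 in KO livers, against 8.11 to 8.55 in WT livers. Its KO minus WT difference over both times was -0.42 on the log2 scale (SE 0.08, limma adjusted p = 0.135). It thus lay lower in KO livers without passing over all probe sets, and the groups overlapped at 0 h. Its probes were not placed relative to the disrupted part of the gene, and its level alone is therefore no check of the labels. Of 14 hepatocyte markers listed 11 were measured, with means per group between 11.1 and 14.3. In bulk liver, fewer cells of a type and less RNA per cell cannot be told apart.

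Ribosomal protein genes were lower at the end of the light phase than at its onset in both genotypes. In KO livers 19 of 31 probe sets (61.3%) were lower at 12 h and 0 were higher, whereas 9.69% of all probe sets were lower and 10.6% higher. In WT livers 20 of 31 (64.5%) were lower and 0 higher, whereas 14.3% of all probe sets were lower and 13.5% higher. A probe set passed at an adjusted p under 0.05 in limma, with adjustment over all 25689 probe sets. At an unadjusted p under 0.05, 1 member was higher, *Rpl30* in WT livers. The median log2 fold change, 12 h minus 0 h, was -0.40 in KO livers and -0.35 in WT livers, beside medians of -0.02 and -0.03 over all probe sets, and single members ranged between -1.39 and 0.14 in KO livers and between -1.66 and 0.27 in WT livers. The decrease was common to both genotypes for 17 probe sets. A further 2 passed in KO livers alone (*Rpl23* and *Rps23rg1*), 3 in WT livers alone (*Rpl8*, *Rps15a* and *Rps2*), and 9 in neither, but no difference between the genotypes' changes passed for any member.

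**Figure D1:**
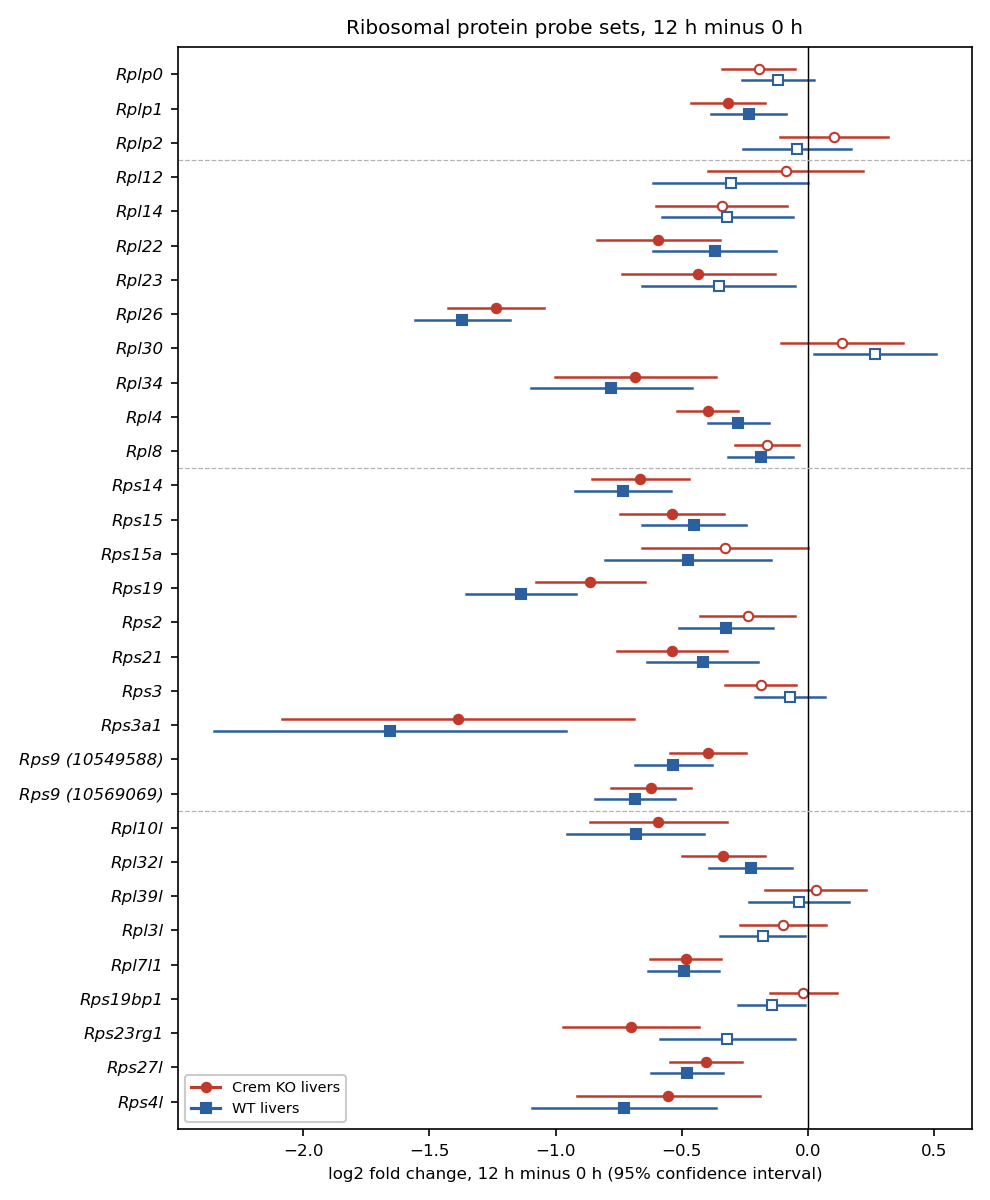
Log2 fold change between 12 h and 0 h (horizontal axis, 95% confidence interval) of each of the 31 probe sets (rows, with dashed lines between stalk, large subunit, small subunit and related genes), in KO livers (circles) above WT livers (squares), 5 mice per group. Filled symbols passed at an adjusted p under 0.05; nearly all symbols lie left of 0, with *Rps3a1*, *Rpl26* and *Rps19* farthest.

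Most members are bright, as 27 of 31 lay above the median brightness of all probe sets. Among the probe sets above that median, 14.6% were lower and 18.4% higher at 12 h in KO livers, and 18.3% were lower and 22.3% higher in WT livers. All 5 mice at 12 h lay below all 5 mice at 0 h for 19 of 31 members in KO livers, against 7.49% of all probe sets, and for 14 members in WT livers, against 8.33% of all probe sets. Both held for 12 members, and in no member did all mice at 12 h lie above those at 0 h, against 8.87% of all probe sets in KO livers and 9.21% in WT livers.

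Probe sets of the small subunit had the largest share of decreases among the roles, with *Rps9* counted at both of its probe sets. In KO livers this share was close to that of the related genes. In KO livers 7 of 10 probe sets were lower at 12 h (median log2 fold change -0.54), and in WT livers 9 of 10 (median -0.50). For the large subunit without the stalk, 5 of 9 probe sets were lower in each genotype, with medians of -0.40 in KO livers and -0.32 in WT livers. Of the 3 stalk probe sets 1 was lower in each genotype, and of the 9 related genes 6 were lower in KO livers and 5 in WT livers. These roles were not tested against each other.

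*Rpl26* encodes a protein near the exit of the large subunit's tunnel and was the member with the smallest adjusted p. Its log2 values in KO livers were 8.33, 8.39, 8.12, 8.26 and 8.35 at 12 h, against 9.44, 9.40, 9.76, 9.68 and 9.35 at 0 h. In WT livers they were 8.12, 8.26, 8.18, 8.25 and 8.38 at 12 h, against 9.65, 9.84, 9.40, 9.63 and 9.51 at 0 h. Every mouse at 12 h thus lay well below every mouse at 0 h, and the genotypes were intermingled at each time. The log2 fold change was -1.24 in KO livers (SE 0.09, adjusted p = 4.38e-09) and -1.37 in WT livers (SE 0.09, adjusted p = 8.62e-10), or 2.36-fold and 2.58-fold lower.

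*Rps19*, whose protein is needed to mature the small subunit and whose human counterpart is mutated in Diamond-Blackfan anaemia, followed. In KO livers it had 9.59, 9.58, 9.48, 9.03 and 9.41 at 12 h, against 10.41, 10.13, 10.15, 10.44 and 10.27 at 0 h. In WT livers it had 8.99, 9.21, 8.92, 9.25 and 9.15 at 12 h, against 10.45, 10.36, 10.11, 10.14 and 10.15 at 0 h. The times did not overlap in either genotype, and at 12 h all KO mice but mouse 110 lay above every WT mouse. The log2 fold change was -0.86 in KO livers (SE 0.10, adjusted p = 3.44e-06) and -1.14 in WT livers (SE 0.10, adjusted p = 8.7e-08). The difference of 0.28 between these changes did not pass (95% confidence interval -0.03 to 0.58, adjusted p = 0.753).

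*Rps3a1*, a small subunit protein near the mRNA exit, had the largest mean change and also the largest spread between mice. In KO livers it had 9.33, 9.48, 9.29, 10.94 and 9.29 at 12 h, against 10.76, 10.32, 11.13, 12.307 and 10.73 at 0 h. In WT livers it had 9.89, 9.30, 9.48, 9.47 and 9.49 at 12 h, against 11.26, 10.82, 12.09, 11.22 and 10.52 at 0 h. WT mice did not overlap between the times, whereas KO mouse 110 at 12 h lay within the range of KO mice at 0 h. The log2 fold change was -1.39 in KO livers (SE 0.34, adjusted p = 0.00474) and -1.66 in WT livers (SE 0.34, adjusted p = 0.000917).

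*Rps14*, another protein of the small subunit's platform, showed the same direction. KO livers had 10.98, 11.05, 10.99, 11.02 and 10.91 at 12 h, against 11.59, 11.36, 11.91, 11.89 and 11.53 at 0 h. WT livers had 10.998, 10.90, 11.04, 11.10 and 10.78 at 12 h, against 11.67, 11.62, 11.78, 11.81 and 11.60 at 0 h. The times were fully separated in both genotypes, at -0.66 in KO livers (SE 0.09, adjusted p = 1.82e-05) and -0.73 in WT livers (SE 0.09, adjusted p = 5.3e-06). *Rps9*, which binds early to the small subunit RNA, is reported by a pair of probe sets that gave the same call. At probe set 10569069 the log2 fold change was -0.62 in KO livers and -0.68 in WT livers, and at probe set 10549588 it was -0.40 in KO livers and -0.53 in WT livers, with adjusted p up to 0.000421. In both probe sets every mouse at 12 h lay below every mouse at 0 h.

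*Rps15* and *Rps21*, which take part in the maturation of the small subunit, were lower by 0.54 and 0.54 on the log2 scale in KO livers (adjusted p = 0.000396 and 0.000747) and by 0.45 and 0.42 in WT livers (adjusted p = 0.00181 and 0.00549). *Rps21* separated the times in both genotypes. *Rps15* separated them in KO livers, whereas WT mouse 168 at 12 h (10.34) exceeded WT mouse 146 at 0 h (10.29). *Rps2*, a protein at the mRNA entry, changed by -0.24 in KO livers (adjusted p = 0.0648) and -0.33 in WT livers (adjusted p = 0.00981). Its 12 h and 0 h mice did not overlap in either genotype. *Rps15a* changed by -0.33 in KO livers (adjusted p = 0.151) and -0.47 in WT livers (adjusted p = 0.0286), and its times overlapped in both. *Rps3*, at the mRNA entry and also a DNA repair protein, was the only small subunit probe set that passed in neither genotype, at -0.19 in KO livers (adjusted p = 0.0511) and -0.07 in WT livers (adjusted p = 0.451).

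Of the large subunit, only *Rpl34* and *Rpl4* separated the times in both genotypes besides *Rpl26*. *Rpl34* in KO livers had 8.00, 8.05, 7.84, 7.78 and 8.07 at 12 h, against 8.99, 8.51, 8.82, 8.76 and 8.08 at 0 h. In WT livers *Rpl34* had 7.68, 7.84, 8.18, 7.76 and 7.75 at 12 h, against 8.34, 8.95, 8.56, 8.29 and 8.98 at 0 h. No mouse at 12 h reached a mouse at 0 h of its genotype, but KO mouse 144 at 0 h stood just above the highest KO mouse at 12 h. Its change was -0.68 on the log2 scale in KO livers (SE 0.15, adjusted p = 0.00255) and -0.78 in WT livers (SE 0.15, adjusted p = 0.000717).

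*Rpl4*, a protein that lines the exit tunnel of the nascent chain, had the smallest spread of all members. In KO livers it had 12.24, 12.04, 12.16, 12.18 and 12.21 at 12 h, against 12.48, 12.48, 12.62, 12.65 and 12.60 at 0 h. In WT livers it had 12.25, 12.25, 12.30 and 12.25 in mice 167 to 170 at 12 h, with mouse 111 slightly above them, against 12.55, 12.51, 12.56, 12.61 and 12.52 at 0 h. The times were separated in both genotypes. Its change was -0.40 on the log2 scale in KO livers (SE 0.06, adjusted p = 3.38e-05) and -0.28 in WT livers (SE 0.06, adjusted p = 0.0013).

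*Rpl22*, which has a paralog of its own in vertebrates and also binds RNA outside the ribosome, changed by -0.59 in KO livers (adjusted p = 0.000791) and -0.37 in WT livers (adjusted p = 0.022), and its times overlapped in both genotypes. *Rpl23*, one of the proteins that bind MDM2, changed by -0.43 in KO livers (adjusted p = 0.0382) and -0.35 in WT livers (adjusted p = 0.0741). *Rpl8*, near the catalytic centre, changed by -0.16 in KO livers (adjusted p = 0.0627) and -0.19 in WT livers (adjusted p = 0.0255). For both of them KO mice did not overlap between the times and WT mice did. *Rpl14* changed by -0.34 in KO livers (adjusted p = 0.0568) and -0.32 in WT livers (adjusted p = 0.0598), and *Rpl12*, at the base of the stalk, by -0.09 in KO livers (adjusted p = 0.724) and -0.31 in WT livers (adjusted p = 0.126).

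*Rpl30* was the member with the highest estimate in both genotypes. In KO livers it had 8.99, 8.83, 9.36, 9.16 and 8.98 at 12 h, against 9.09, 8.75, 9.19, 8.89 and 8.74 at 0 h. In WT livers it had 9.47, 9.01, 8.99, 8.99 and 9.40 at 12 h, against 9.04, 8.82, 8.98, 8.85 and 8.84 at 0 h. The times overlapped in both genotypes, with WT mice 111 and 170 highest. The log2 fold change was 0.14 in KO livers (adjusted p = 0.453) and 0.27 in WT livers (adjusted p = 0.0928). It passed as higher in WT livers when each array was centred on its median.

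**Figure D2:**
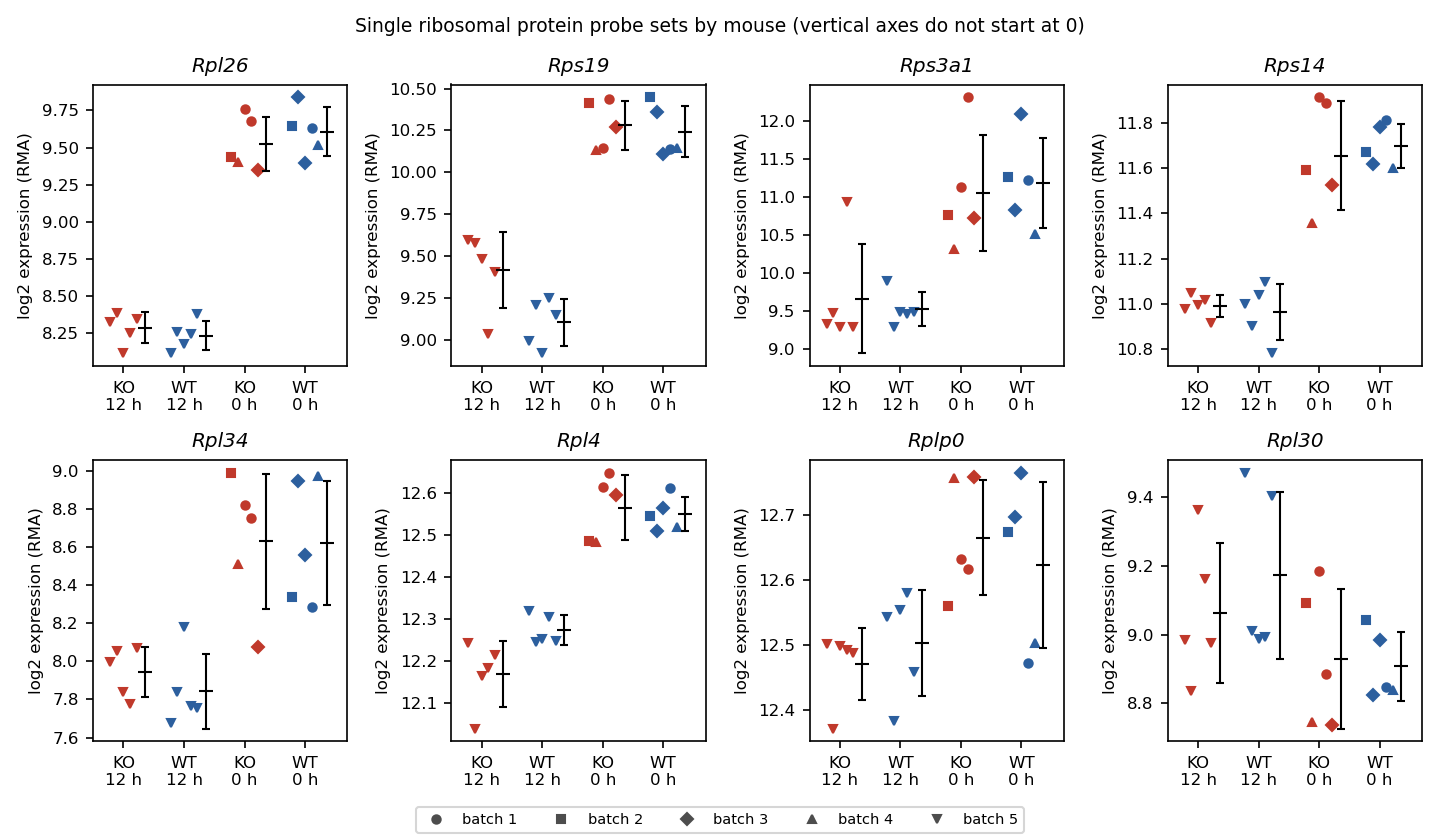
Log2 expression (vertical axes, which do not start at 0) of 8 ribosomal protein probe sets in each mouse, for KO and WT at 12 h and then KO and WT at 0 h; symbols give the batch, and bars the mean and SD of 5 mice. *Rpl26*, *Rps19*, *Rps14*, *Rpl34* and *Rpl4* separate the times within each genotype, *Rps3a1* has KO mouse 110 apart at 12 h, and *Rplp0* in WT livers and *Rpl30* overlap.

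The stalk of the large subunit, made of RPLP0 and dimers of RPLP1 and RPLP2, recruits and activates the elongation factors. *Rplp1* was lower at 12 h, by 0.32 on the log2 scale in KO livers (adjusted p = 0.00259) and by 0.24 in WT livers (adjusted p = 0.0169). *Rplp0*, often used as a reference in qPCR, in KO livers had 12.50, 12.371, 12.50, 12.49 and 12.49 at 12 h, against 12.56, 12.76, 12.63, 12.62 and 12.76 at 0 h. In WT livers *Rplp0* had 12.54, 12.383, 12.55, 12.58 and 12.46 at 12 h, against 12.68, 12.70, 12.77, 12.47 and 12.50 at 0 h. All KO mice at 12 h lay below those at 0 h, and WT mice overlapped. Its changes of -0.20 in KO livers (adjusted p = 0.0505) and -0.12 in WT livers (adjusted p = 0.208) did not pass. *Rplp2* changed by 0.10 in KO livers (adjusted p = 0.534) and -0.04 in WT livers (adjusted p = 0.794), with overlap in both. Its probe set had a mean of 7.04 over all arrays, below the median brightness of all probe sets, which limits what it can show.

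Among the paralogs and namesakes, *Rpl7l1*, whose product resembles RPL7 and acts in the nucleolus, separated the times in both genotypes, at -0.48 in KO livers (adjusted p = 2.05e-05) and -0.49 in WT livers (adjusted p = 1.64e-05). *Rps27l*, a paralog of *Rps27* that responds to p53, did so too, at -0.40 in KO livers (adjusted p = 0.000184) and -0.48 in WT livers (adjusted p = 2.42e-05). *Rpl10l*, a paralog of *Rpl10* used in testis, changed by -0.59 in KO livers (adjusted p = 0.00215) and -0.68 in WT livers (adjusted p = 0.000541). Its probe set had a mean of 6.91 over all arrays, below the median brightness of all probe sets. Near-identical copies and many processed pseudogenes exist for ribosomal protein genes, so that a probe set can take up signal of another copy, and how far this happened here was not tested. *Rpl32l* changed by -0.34 in KO livers (adjusted p = 0.00382) and -0.23 in WT livers (adjusted p = 0.036). *Rps4l*, annotated in RefSeq as a transcribed pseudogene, changed by -0.55 in KO livers (adjusted p = 0.0282) and -0.73 in WT livers (adjusted p = 0.00368).

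*Rps23rg1*, a retroposed copy related to *Rps23*, had the widest difference in change between the genotypes. In KO livers it had 7.69, 7.55, 7.65, 7.59 and 8.03 at 12 h, against 8.31, 8.69, 8.26, 8.62 and 8.13 at 0 h. In WT livers it had 7.49, 7.78, 7.49, 7.89 and 8.00 at 12 h, against 7.69, 8.21, 8.15, 8.17 and 8.04 at 0 h. KO mice were separated between the times and WT mice overlapped through mouse 78 at 0 h. The log2 fold change was -0.70 in KO livers (SE 0.13, adjusted p = 0.000408) and -0.32 in WT livers (SE 0.13, adjusted p = 0.0688), and their difference of -0.38 did not pass (adjusted p = 0.725). *Rpl3l*, the paralog of *Rpl3* used in striated muscle, *Rpl39l*, the paralog of *Rpl39* used in male germ cells, and *Rps19bp1*, which encodes an RPS19-binding protein rather than a ribosomal one, passed in neither genotype, with estimates between -0.10 and 0.03 in KO livers and between -0.18 and -0.04 in WT livers. The probe sets of *Rpl3l* and *Rpl39l*, with means of 6.17 and 5.17, lay below the median brightness of all probe sets.

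Of the 39 calls in both genotypes, 7 were lost when a single mouse was left out. *Rplp1* in WT livers was lost without mouse 111 (-0.20, adjusted p = 0.0523). *Rpl22* in WT livers was lost without mouse 145, 146, 168 or 169 (-0.34 to -0.32, adjusted p between 0.0538 and 0.0595), and *Rps15a* without mouse 80, 146, 168 or 169 (-0.45 to -0.41, adjusted p between 0.0594 and 0.0752). *Rpl8* in WT livers was lost without mouse 111, 145, 147, 167 or 170 (-0.18 to -0.17, adjusted p between 0.0513 and 0.0595), and *Rpl32l* without mouse 80, 111, 146, 147, 167 or 168 (-0.23 to -0.19, adjusted p between 0.0544 and 0.0887). *Rpl23* in KO livers was lost without mouse 55, 77, 109, 143 or 166 (-0.44 to -0.31, adjusted p between 0.0609 and 0.124), and *Rps4l* without mouse 1, 77, 109, 110, 144 or 166 (-0.53 to -0.41, adjusted p between 0.0564 and 0.0923). These members thus stood near the threshold. In both genotypes 13 probe sets kept the call under every alternative run that held them. They were *Rpl4*, *Rpl7l1*, *Rpl10l*, *Rpl26*, *Rpl34*, *Rps3a1*, both of *Rps9*, *Rps14*, *Rps15*, *Rps19*, *Rps21* and *Rps27l*. Of these, *Rpl10l* lay below the median brightness and was not in the run with the brightness filter.

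The change between the times was then set beside the motifs. Among the 12 probe sets with a run within 5 bases of a start, 7 were lower in KO livers (median -0.37) and 8 in WT livers (median -0.37), and among the 14 with a promoter entry but no run, 9 were lower in KO livers (median -0.46) and 8 in WT livers (median -0.36). For the 10 probe sets with TGACG or CGTCA the counts were 7 in KO livers (median -0.40) and 6 in WT livers (median -0.42), and for the 16 without it 9 in KO livers (median -0.41) and 10 in WT livers (median -0.35). These are descriptions with no test.

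The mean over the 31 probe sets was 9.40 ± 0.02 in KO livers at 12 h and 9.39 ± 0.03 in WT livers at 12 h, against 9.82 ± 0.11 in KO livers at 0 h and 9.84 ± 0.03 in WT livers at 0 h (SD, n = 5 each). The 10 mice at 12 h lay between 9.35 and 9.44, below the 10 mice at 0 h, which lay between 9.70 and 9.95. KO mice at 0 h were the most spread, with mouse 76 at 9.70 and mouse 144 at 9.71, against 9.86, 9.90 and 9.95 for the other 3, whereas the WT mice at 0 h lay between 9.81 and 9.88. The median of all probe sets per array differed by -0.07 between 12 h and 0 h over both genotypes, against mean differences of -0.42 in KO livers and -0.45 in WT livers for the ribosomal proteins. No p is given for this mean, because its members share the arrays and are not replicates.

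**Figure D3:**
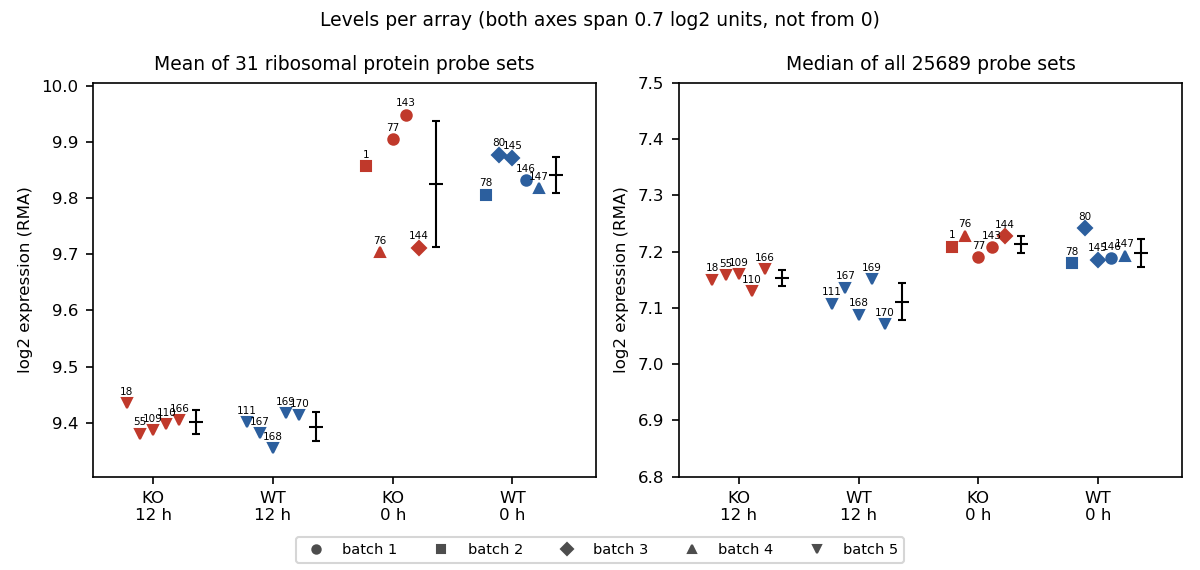
Mean log2 expression of the 31 ribosomal protein probe sets (left) and median of all 25689 probe sets (right) per array, numbered by mouse, for KO and WT at 12 h and then KO and WT at 0 h; symbols give the batch and bars the mean and SD of 5 mice, and both axes span the same number of log2 units without starting at 0. The left panel separates 12 h (9.35 to 9.44) from 0 h (9.70 to 9.95), and KO mice 76 and 144 lie apart from the other KO mice at 0 h.

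As batch 5 held all 12 h arrays, the range of the 4 batch means at 0 h, after removal of the genotype means, was set beside the change between the times. The range had a median of 0.24 over members, beside 0.20 over all probe sets, and lay between 0.06 (*Rps19bp1*) and 1.16 (*Rps3a1*). The change between the times exceeded this range for 21 members in KO livers (67.7%) and for 20 in WT livers (64.5%), beside 35.1% and 41% of all probe sets, and for 17 members in both. It did so for 18 of the 19 members called lower in KO livers and for 18 of the 20 called lower in WT livers. For *Rps3a1* the changes of -1.39 in KO livers and -1.66 in WT livers stood against a range of 1.16. A difference of batch 5 from the others that is larger than those between batches 1 to 4 cannot be told apart from the time of day.

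**Figure D4:**
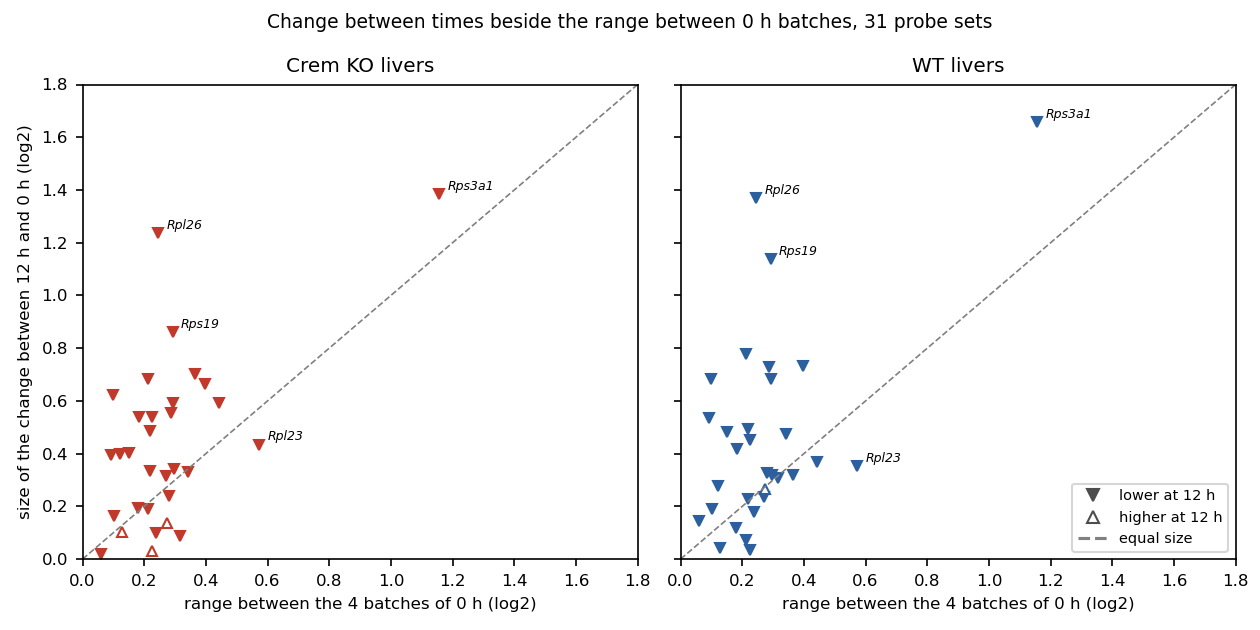
Size of the change between 12 h and 0 h (vertical axis, log2) against the range of the 4 batch means at 0 h (horizontal axis, log2) for each of the 31 probe sets, in KO livers (left) and WT livers (right). Filled triangles are lower and open triangles higher at 12 h; 21 probe sets in KO livers and 20 in WT livers lie above the dashed line of equal size, *Rpl26* and *Rps19* farthest above it and *Rpl23* below it.

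The comparison of genotypes asked whether loss of *Crem* changes these genes in liver. No member passed at 12 h (0 of 31, beside 0.0234% of all probe sets), at 0 h (0 of 31, beside 0%) or over both times (0 of 31, beside 0.0117%), in limma with adjustment over all probe sets. At an unadjusted p under 0.05 there were 3 members at 12 h, 1 at 0 h and 2 over both times, beside 12.5%, 4.47% and 9.88% of all probe sets. The median log2 fold change, KO minus WT, was 0.02 at 12 h, -0.04 at 0 h and -0.01 over both times. At one time the 95% confidence intervals, without adjustment over all probe sets, reached 0.20 to either side in the median member. Over members this reach lay between 0.12 (*Rpl4*) and 0.70 (*Rps3a1*). Differences whose interval left out 0 (*Rps19*, *Rpl22* and *Rps15* at 12 h, *Rps23rg1* at 0 h) did not pass after that adjustment. No member separated KO from WT at 0 h, beside 0.343% of all probe sets with all KO mice above and 0.385% with all below. At 12 h 1 member did, beside 1.18% of all probe sets with all KO mice above and 1.24% with all below.

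**Figure D5:**
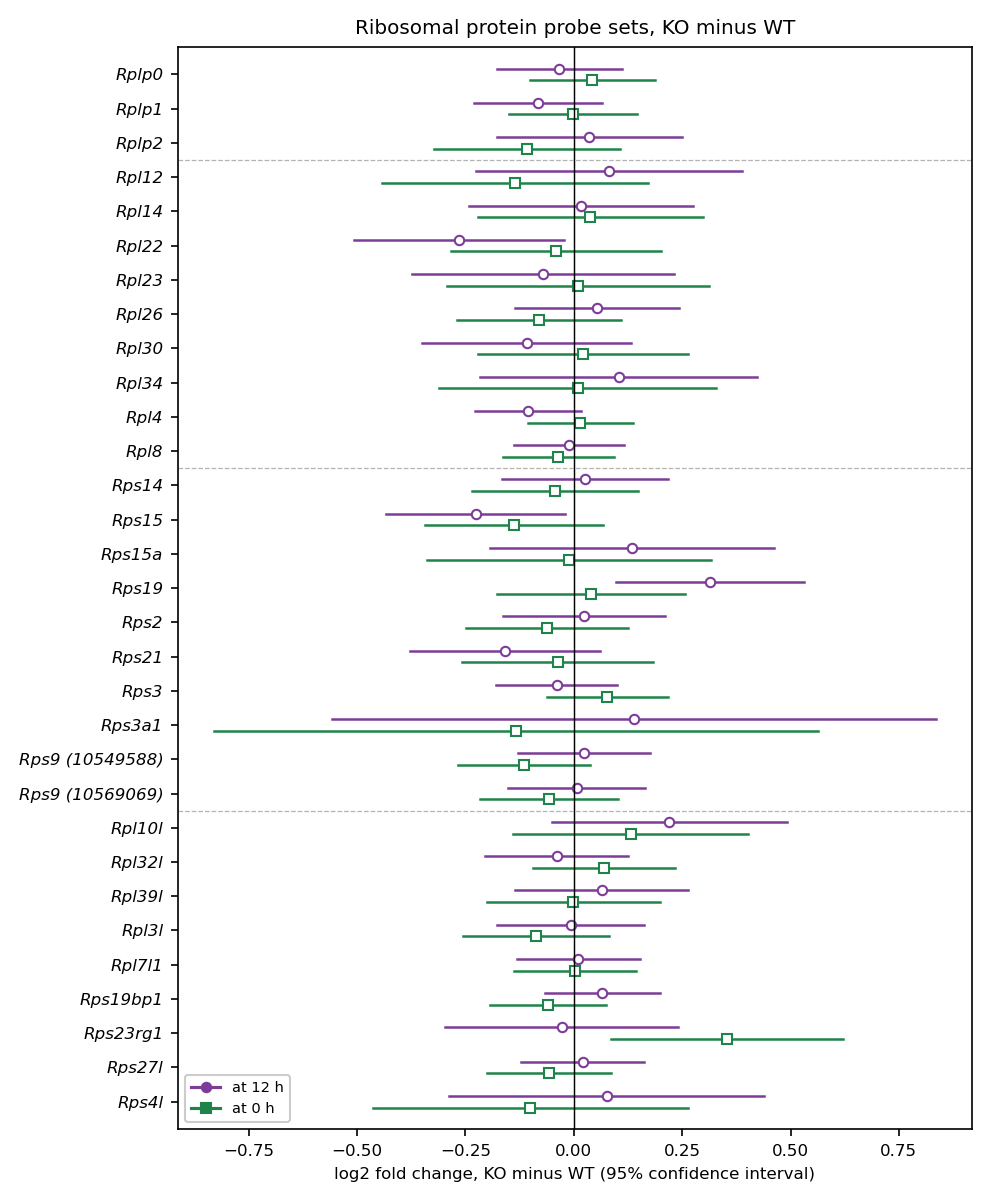
Log2 fold change, KO minus WT (horizontal axis, 95% confidence interval), of each of the 31 probe sets (rows, grouped by role with dashed lines), at 12 h (circles) above 0 h (squares), 5 mice per group. All symbols are open because 0 passed; *Rps19* and *Rpl10l* have the highest estimates at 12 h, and *Rps23rg1* has the highest at 0 h.

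That member was *Rpl4*, whose 5 KO values at 12 h, given above, all lay below the 5 WT values, at a difference of -0.10 (95% confidence interval -0.23 to 0.02, adjusted p = 0.475). *Rps19* had the largest difference in either direction at 12 h, 0.31 higher in KO livers (95% confidence interval 0.10 to 0.53, adjusted p = 0.212), and at 0 h its difference was 0.04. *Rpl22* and *Rps15* had the lowest estimates at 12 h. They were -0.26 (95% confidence interval -0.51 to -0.02, adjusted p = 0.351) and -0.23 (95% confidence interval -0.43 to -0.02, adjusted p = 0.347). *Rps15* was lowest over both times as well, at -0.18 (95% confidence interval -0.33 to -0.04, adjusted p = 0.419), and *Rps19* highest, at 0.18 (adjusted p = 0.444). At 0 h the highest estimate was that of *Rps23rg1*, 0.35 (95% confidence interval 0.09 to 0.62, adjusted p = 0.987), whose KO and WT values overlapped. *Rpl26* and *Rps9*, the genes with the full CRE motif, differed by 0.05 and, at the probe sets of *Rps9*, by 0.01 and 0.02 at 12 h, and by -0.08, -0.06 and -0.11 at 0 h.

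Batches 1 to 4 each held both genotypes at 0 h. The median KO minus WT difference of the 31 members was 0.08 in batch 1 (2 KO, 1 WT) and 0.04 in batch 2 (1 KO, 1 WT), but -0.16 in batch 3 (1 KO, 2 WT) and -0.13 in batch 4 (1 KO, 1 WT). In batch 5, at 12 h, it was 0.02 (5 KO, 5 WT). The sign at 0 h thus turned between batches, with the KO mice 144 and 76 in batches 3 and 4. Over the difference between the genotype effects at 12 h and at 0 h, 0 of 31 members passed (beside 0% of all probe sets), 1 had an unadjusted p under 0.05, beside 6.84% of all probe sets, and the lowest adjusted p was 0.725.

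Within groups, members varied between mice about as much as other probe sets. The residual SD about the 4 group means had a median of 0.15 over members, beside 0.16 over all probe sets, and lay between 0.06 (*Rpl4*) and 0.61 (*Rps3a1*). After *Rps3a1* the widest were *Rps4l* (0.31), *Rps15a* (0.28), *Rpl34* (0.27) and *Rpl12* (0.26). Over 20 arrays the residuals of the 465 pairs of members had a median Pearson correlation of 0.10, highest for *Rps14* and *Rps3* (0.81) and next for *Rpl26* and *Rpl7l1* (0.72), and 300 of the pairs (64.5%) lay above 0. These points share arrays, batches and normalization, and the correlations are a description.

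The annotation of 6 further probe sets with values lists a ribosomal protein gene together with another gene, so that they fall outside the rule and cannot be assigned to a gene. In each genotype 2 of them were lower at 12 h, 1 was higher and 3 did not pass, with log2 fold changes between -0.41 and 0.66 in KO livers and between -0.65 and 0.77 in WT livers. The only probe set of the list of ribosomal proteins with other names that was measured, *Fau*, changed by 0.04 in KO livers and -0.01 in WT livers and did not pass.

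Mitochondrial ribosomal proteins, which translate the mitochondrial genome in a separate ribosome, were lower at 12 h where they passed. Of 73 measured genes 32 (43.8%) were lower and 41 did not pass in KO livers (median -0.19), beside 9.69% of all probe sets lower. In WT livers 33 (45.2%) were lower and 40 did not pass (median -0.21), beside 14.3% of all probe sets. *Mrpl33* changed by -0.86 in KO livers (adjusted p = 4.74e-06) and -0.78 in WT livers (adjusted p = 1.53e-05), *Mrps12* by -0.76 (adjusted p = 0.000415) and -1.14 (adjusted p = 4.12e-06), and *Mrpl13* by -0.62 (adjusted p = 1.17e-05) and -0.74 (adjusted p = 1.34e-06). For genotype 0 of the 73 passed in limma at 12 h, at 0 h or over both times. An unadjusted p under 0.05 was found for 4, 4 and 5 of them, beside 12.5%, 4.47% and 9.88% of all probe sets.

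Other lists of translation held calls in both directions. Their counts stand beside 10.6% of all probe sets higher and 9.69% lower in KO livers, and 13.5% higher and 14.3% lower in WT livers. Of 15 elongation factors and other TOP transcripts 2 were higher (13.3%) and 4 lower (26.7%) in each genotype. *Eef2*, the translocase that works at the stalk, was higher at 12 h, by 0.29 in KO livers (adjusted p = 0.000643) and 0.35 in WT livers (adjusted p = 8.26e-05), while *Eef1b2*, an exchange factor of elongation, changed by -0.43 in KO livers (adjusted p = 6.51e-05) and -0.47 in WT livers (adjusted p = 1.87e-05). Of 29 initiation factors 2 were higher and 10 lower in KO livers, and 2 higher and 6 lower in WT livers, with *Eif3k* lowest at -0.74 in KO livers and -0.86 in WT livers (adjusted p = 6.1e-07 and 8.24e-08). Of 62 ribosome biogenesis factors 9 were higher (14.5%) and 12 lower (19.4%) in KO livers, and 10 higher (16.1%) and 11 lower (17.7%) in WT livers, where both shares were near those of all probe sets. Among them *Utp20*, a large scaffold of the small subunit processome, was higher, by 0.42 in KO livers and 0.46 in WT livers (adjusted p = 0.000233 and 8.11e-05), and *Utp3* and *Imp3* of the same particle were lower, by 0.90 and 0.73 in KO livers (adjusted p = 8.81e-07 and 1.47e-06) and by 0.82 and 0.68 in WT livers (adjusted p = 2.91e-06 and 3.37e-06).

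Of 17 genes of RNA polymerase I, which transcribes the ribosomal RNA precursor, 3 were higher and 2 lower in KO livers, and 3 higher and 3 lower in WT livers. *Polr1b*, its second largest subunit, was higher, by 0.41 in KO livers (adjusted p = 0.00107) and 0.53 in WT livers (adjusted p = 8.43e-05), and *Polr1d*, which it shares with RNA polymerase III, changed by -0.35 in KO livers (adjusted p = 0.0268) and -0.57 in WT livers (adjusted p = 0.000598). Of 31 genes of mTOR signalling to translation, 10 were higher and 2 lower in KO livers, and 9 higher and 2 lower in WT livers. *Mtor* itself was higher, by 0.52 in KO livers (adjusted p = 1.64e-05) and 0.57 in WT livers (adjusted p = 6.07e-06). Transcript levels say nothing of the activity of the kinase. Of 11 genes often used as qPCR references 1 was higher and 2 lower in KO livers, and 1 higher and 3 lower in WT livers. For genotype 0 of the 237 genes in these lists, the mitochondrial one included, passed in limma at 12 h, at 0 h or over both times. An unadjusted p under 0.05 was found for 15 (6.33%), 12 (5.06%) and 17 (7.17%), beside 12.5%, 4.47% and 9.88% of all probe sets.

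Core clock genes, which oscillate over the day, were called most often. In KO livers 12 of 16 (75%) were higher and 4 (25%) lower at 12 h, beside 10.6% and 9.69% of all probe sets. In WT livers 12 (75%) were higher and 2 (12.5%) lower, beside 13.5% and 14.3% of all probe sets. *Dbp*, a transcription factor driven directly by the clock, was higher by 2.99 in KO livers (adjusted p = 1.9e-09) and 2.796 in WT livers (adjusted p = 4.22e-09). Of 12 Kupffer cell and macrophage markers 2 (16.7%) were lower and 1 (8.33%) higher at 12 h in KO livers (median -0.19), beside 9.69% and 10.6% of all probe sets. In WT livers 7 (58.3%) were lower and 1 higher (median -0.41), beside 14.3% and 13.5% of all probe sets. Their summed level lay between 12.9 and 13.4 in KO livers at 12 h and between 12.9 and 13.2 in WT livers at 12 h, against 13.1 to 13.5 in KO livers at 0 h and 13.3 to 13.5 in WT livers at 0 h, with none of them at 0. Of 11 hepatocyte markers 3 (27.3%) were lower and 1 (9.09%) higher in KO livers, beside 9.69% and 10.6% of all probe sets. In WT livers 2 (18.2%) of these markers were lower and 1 (9.09%) higher, beside 14.3% and 13.5% of all probe sets. Their summed level lay between 17.0 and 17.1 in KO livers at 12 h and between 17.0 and 17.1 in WT livers at 12 h, against 17.1 to 17.2 in KO livers at 0 h and 17.1 to 17.2 in WT livers at 0 h. The part of either cell type in the change of the ribosomal proteins was not tested. Markers of B cells (9), T and NK cells (13) and neutrophils (12) gave 0 calls between the times in limma. At most 3 of a list had an unadjusted p under 0.05, beside 32.8% of all probe sets in KO livers and 39.5% in WT livers. Of 5 erythroid, 11 sinusoidal endothelial, 10 stellate and 6 cholangiocyte markers at most 3 passed in either direction. The largest share was that of sinusoidal endothelial markers in WT livers, 27.3% higher and 9.09% lower, beside 13.5% and 14.3% of all probe sets.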

How the data were processed

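The authors deposited 1 table of log2 expression values per probe set for 20 liver arrays, normalized by RMA, which the submitters' processing notes name with no version. The genome build, the software and whether other tissues were normalized together with the livers are not given in the sources used here. Differences in background and scale between arrays were thus already reduced, but a shift between the times remained. The median of all probe sets per array lay between 7.07 and 7.17 at 12 h, against 7.18 to 7.24 at 0 h. With each array centred on its median, the median member change was -0.34 in KO livers (17 of 31 lower). In WT livers it was then -0.27 (14 of 31 lower). Values are relative brightness, and precision is limited by the number of arrays. Of 35557 probe sets, those with no value (9868) could not be used, and 0 columns were left unused. The study's paper describes another tissue, so that no setting was taken from it. Probe sets were named from the annotation of the platform. The gene identifiers of all 30 members were found in RefSeq genes of GRCm38.p6 under the same symbol. Another 232 probe sets with several genes and 4680 with none entered the fit without being named.

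Groups were the 4 combinations of genotype and time that the labels give. A model with 4 group means was fitted to the 20 arrays in limma 3.58.1 (R 4.3.3) with moderated variances, and p was adjusted by Benjamini-Hochberg over 25689 probe sets (threshold 0.05, intervals at 95%). The p-values measure the spread between mice. The code was tested on simulated data. The members, the comparisons and the gene lists (mitochondrial ribosomal proteins, ribosomal proteins with other names, elongation factors and TOP transcripts, initiation factors, biogenesis factors, RNA polymerase I, mTOR signalling, qPCR references, core clock and cell type markers) were chosen with earlier results of these data known. In these lists a gene is represented by its brightest probe set. Members were named by rule, as the stalk, the related genes, those with the largest and smallest changes, spreads and levels, and those with a mouse apart, and the few remaining members were then named as well. Genes of the lists were named from the 3 largest changes that passed in a direction. Alternatives were batch as a block, only the arrays compared, a brightness filter, quantile normalization, centring of each array, weights per array, an intensity trend with a robust prior, leaving out each mouse, 1 probe set per gene, only subunits of the ribosome and, chosen after seeing the data, inclusion of 6 probe sets of several genes. Promoter sequences were read from RefSeq.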

Additional observations from a re-analysis of the deposited data

Results flagged for a closer look

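In 6 of 128 groups of 5 mice, each taken for 1 probe set or for the mean over all of them, 1 mouse stood apart from the other 4 by more than Dixon's limit at 95%. Chance gives about 1 in 20 such groups, or 6.4 of 128. *Rps3a1* had 10.94 in KO mouse 110 at 12 h, against 9.29 to 9.48 in the other 4. Without that mouse its change between the times in KO livers was -1.70 (limma adjusted p = 0.000331). *Rps23rg1* had 8.03 in KO mouse 166 at 12 h, against 7.55 to 7.69, and its change without it was -0.78 (adjusted p = 0.000182). *Rps21* had 8.41 in WT mouse 168 at 12 h, against 8.78 to 8.93, and its change without it was -0.33 (adjusted p = 0.0189). *Rpl7l1* had 10.04 in WT mouse 111 at 12 h, against 10.11 to 10.14, and its change without it was -0.48 (adjusted p = 8.57e-05). The other two did not pass with or without the mouse. *Rplp0* had 12.371 in KO mouse 55 at 12 h, against 12.49 to 12.50, and its change without it was -0.17 (adjusted p = 0.117). *Rpl8* had 11.93 in KO mouse 1 at 0 h, against 11.76 to 11.81, and its change in KO livers without it was -0.13 (adjusted p = 0.157).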

How the results depend on the processing

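Mice could not be paired because the labels give no mouse or replicate number shared between groups. Numbers within a group were given in accession order. With any 1 mouse left out, the number of members passing between the times lay between 17 and 20 in KO livers and between 17 and 21 in WT livers, and it was 0 for every genotype comparison. The median member log2 fold change, 12 h minus 0 h, lay between -0.43 and -0.37 in KO livers and between -0.39 and -0.33 in WT livers. For KO minus WT it lay between -0.005 and 0.02 at 12 h, between -0.060 and 0.031 at 0 h, between -0.03 and 0.002 over both times, and between 0.02 and 0.07 for the difference between the times. The highest of these at 0 h, 0.031, was found without KO mouse 76. The median between the times in WT livers was -0.42 after quantile normalization and -0.27 with each array centred on its median, where 14 members were lower and 1 (*Rpl30*) higher. The other settings differ in how many probe sets they hold. In KO livers the count passing lay between 13 of 22 (only subunits of the ribosome) and 24 of 31 (intensity trend). In WT livers the lowest count was 15, of 22 with only subunits and of 31 with arrays centred. The highest was 23, of 31 with quantile normalization and of 37 with the 6 probe sets of several genes added. Of 1046 single-member results for time, 973 kept their side of the threshold, 41 lost it and 32 gained it, none changed sign while passing, and all 2650 for genotype kept theirs. Leaving out 1 mouse brought past the threshold *Rpl12* (mouse 111), *Rpl14* (147 or 167), *Rpl23* (169), *Rpl3l* (169) and *Rps23rg1* (78 or 170) in WT livers, and *Rpl14* (144), *Rplp0* (1), *Rps15a* (109) and *Rps3* (76) in KO livers. For genotype, batch could be given as a fixed block, where 0 members passed at 0 h and the median KO minus WT difference was -0.05. For time, batch could be given only as a random block (correlation 0.03).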
